A study of Homo sapiens with 6 samples.

Results

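The epidermal differentiation complex is a cluster of genes on chromosome 1 that encode the proteins of the cornified envelope, the cross-linked shell of the outermost skin cells. Members were taken by name from 4 deposited peak lists: every gene symbol of the late cornified envelope (LCE) and small proline-rich (SPRR) families, the genes of the S100-fused type proteins, the envelope precursors involucrin and loricrin, and smaller neighbours. Of the 18086 gene symbols in the lists 41 were members: 17 LCE genes, 11 SPRR genes, 6 genes of S100-fused type proteins and 7 others (CRCT1, SMCP, IVL, LELP1, PRR9, LOR and PGLYRP4). Of the 46 RefSeq symbols that meet the same names, LCE3C, LCE7A, PGLYRP3, SPRR5 and TCHHL1 had no line in any list.

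The lists come from HL-60, an established human promyelocytic leukaemia line labelled as myeloblast, in a parental form and a form labelled JMJD3 KO, both grown in the same serum-supplemented DMEM. ChIP-seq, the sequencing of chromatin fragments pulled down with an antibody, gave 1 library per genotype for each of H3K4me3 and H3K27me3. The titles give H3K27me3 for the library pair whose antibody label reads H3K4me3, and the titles were followed. The sources used here do not give how the knockout was made or whether it is 1 clone. The lists hold peak positions without read counts, so depth is unknown, no difference has a replicate check and no p-value is given. A list from bulk cells also cannot tell fewer cells with the mark from less of the mark per cell. To check the label myeloblast, promoter H3K4me3 was counted for marker genes. It was listed for 8 of 10 myeloid marker genes in parental and 7 in knockout cells, near the 71.3% and 62.9% of all symbols that had it, and for 1 of 10 keratinocyte marker genes (KRT10) in both. Only 4 of those 10 keratinocyte genes had any line in the lists. None of these marker genes had promoter H3K27me3 in either list. Among all symbols 5.11% had it in parental and 4.97% in knockout cells, so its absence from so few genes is near that share.

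H3K27me3 is laid down by Polycomb repressive complex 2 and is found over silent genes, often as broad domains. JMJD3 is an enzyme that removes it, and in keratinocytes it has been linked to the activation of differentiation genes. The envelope genes are switched on late in keratinocyte differentiation: involucrin and the SPRR proteins form a scaffold and cross-bridges, loricrin and the LCE proteins reinforce it, and filaggrin bundles keratin filaments inside the cell.

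The promoters of the members had few CpG dinucleotides, the sequence feature that marks most promoters with H3K4me3. RefSeq promoter windows of 300 bases (250 before and 50 after the start, build GRCh38.p14) existed for 36 members, and 34 of them had a start with the same spacing from FLG as in the lists, within 100 bases. Not matched were CRCT1, LCE1B, SPRR2C, SPRR2D and SPRR2E, and LCE4A and LCE1F had another start. These 34 windows held 0 to 5 CpG with a median of 2, against a median of 14 over all 27305 windows of the table. Genes outside the complex with promoter H3K27me3 had a median of 9 in parental and 8 in knockout cells, and genes with promoter H3K4me3 had 26 and 27. The sequence TATAAA, searched on both strands, was present in 22 of the 34 (64.7%) and in 3264 of the 27305 windows. On the gene's own strand and starting 40 to 20 bases before the start, it was present in 19 of the 34 (55.9%) and in 2.55% of all windows. The sequence TGANTCA, a loose form of the AP-1 site that reads alike on both strands and cannot overlap TATAAA, was present in 15 of the 34 (44.1%) and in 7.76% of all windows. A match is a run of letters and not evidence of binding. Some windows are near copies, such as those of LCE2D and LCE2C (92.4% identical) and of SPRR2A and SPRR2F (87.1%). The 34 windows are therefore not independent counts. By family, TGANTCA was in 5 of 6 windows of S100-fused type genes, 6 of 8 SPRR windows and 0 of 14 LCE windows. The windows of filaggrin, involucrin, SPRR2A and LCE1C are shown because these genes recur in the H3K27me3 results below. Letters in capitals are TATAAA or TGANTCA.
FLG promoter, chr1:152325190-152325489, strand -: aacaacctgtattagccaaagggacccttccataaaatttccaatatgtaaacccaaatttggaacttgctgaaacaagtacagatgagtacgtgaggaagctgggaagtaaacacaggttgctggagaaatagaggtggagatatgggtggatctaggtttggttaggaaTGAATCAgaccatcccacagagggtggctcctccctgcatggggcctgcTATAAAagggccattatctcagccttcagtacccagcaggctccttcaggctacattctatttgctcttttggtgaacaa
IVL promoter, chr1:152908296-152908595, strand +: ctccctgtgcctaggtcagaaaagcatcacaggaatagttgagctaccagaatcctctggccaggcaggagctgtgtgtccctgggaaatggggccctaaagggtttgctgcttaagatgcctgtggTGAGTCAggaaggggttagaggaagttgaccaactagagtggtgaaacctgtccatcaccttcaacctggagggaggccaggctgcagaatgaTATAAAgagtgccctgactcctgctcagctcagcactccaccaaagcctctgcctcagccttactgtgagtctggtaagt
SPRR2A promoter, chr1:153057463-153057762, strand -: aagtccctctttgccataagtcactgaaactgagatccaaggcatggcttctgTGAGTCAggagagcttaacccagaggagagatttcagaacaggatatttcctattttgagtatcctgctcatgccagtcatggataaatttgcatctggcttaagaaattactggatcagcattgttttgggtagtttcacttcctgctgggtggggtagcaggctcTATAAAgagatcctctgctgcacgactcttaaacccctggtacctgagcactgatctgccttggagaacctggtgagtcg
LCE1C promoter, chr1:152806602-152806901, strand -: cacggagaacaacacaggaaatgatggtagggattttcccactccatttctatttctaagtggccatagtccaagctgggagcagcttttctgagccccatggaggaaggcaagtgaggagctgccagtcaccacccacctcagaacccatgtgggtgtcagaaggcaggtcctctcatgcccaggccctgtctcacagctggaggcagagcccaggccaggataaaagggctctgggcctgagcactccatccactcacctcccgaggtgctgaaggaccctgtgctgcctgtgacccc
In the first 3 windows TATAAA begins at position -30 from the start, and TGANTCA at -79, -123 and -197. The LCE1C window holds neither sequence. The windows hold 1, 0, 2 and 2 CpG in the order shown.

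**Figure D1:**
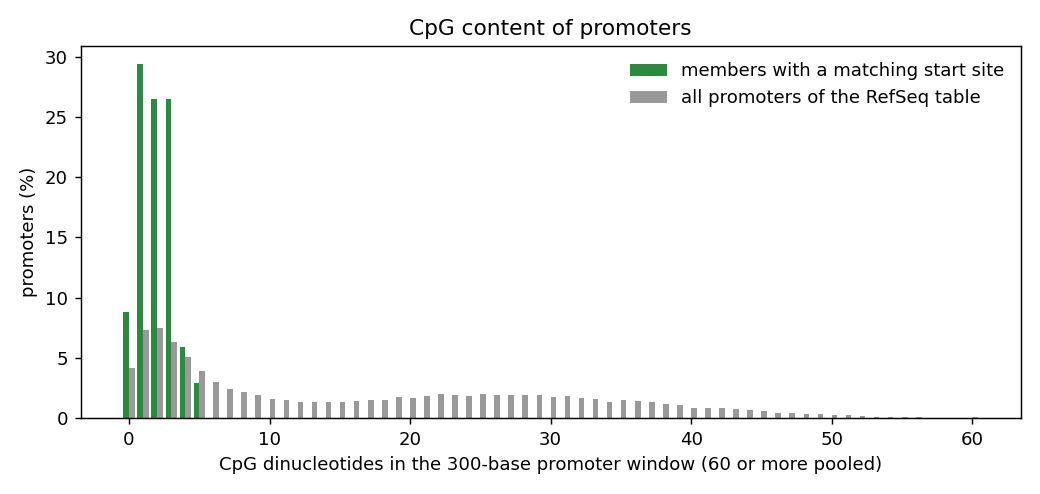
CpG dinucleotides per promoter window of 300 bases (x axis) against the percentage of promoters (y axis), for the 34 members with a matching start and for all 27305 windows. The members lie between 0 and 5 CpG, whereas the table as a whole extends to 77, with 60 or more drawn at 60.

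H3K27me3 covered the complex densely in parental cells and less densely in knockout cells. The locus was taken as the span from the first to the last member start site with 20 kb on each side, from 152067931 to 153341317 on chromosome 1 (hg19, 1273 kb). It held 121 H3K27me3 peaks in the parental list, 3.38% of that list, and 80 in the knockout list, 2.47%. The order of these counts turned when peaks at most 3 kb apart were joined, to 58 parental and 62 knockout peaks, while the log2 ratio of covered length was then -1.06. Their summed length was 303.0 kb, 7.18% of the length of the parental list, against 162.8 kb, 3.91% of the knockout list. Peaks are listed only within 20 kb of a transcript start, and of this listable part of the locus 29.1% was covered in parental and 15.6% in knockout cells. Outside the locus 0.786% and 0.804% of the listable part was covered. The log2 ratio of covered length, knockout over parental, was -0.90 in the locus, 0.03 in the rest of the list and 0.08 in the rest of chromosome 1. The lower length in the knockout list was not shared by the list as a whole.

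The neighbourhood of the locus held few H3K27me3 peaks. The 200 kb before it held 1 parental and 0 knockout peaks, and the 200 kb after it held 3 and 2. Those after it covered 3.39 and 3.43 kb, per length more than the 0.786% and 0.804% covered outside the locus. The H3K4me3 lists showed the reverse, with 13 and 12 peaks before the locus and 10 and 8 after it. Within the locus H3K4me3 had 4 parental and 3 knockout peaks. Of these, 1 in each list lay in the added 20 kb, centred 375 and 785 bp from the start of S100A9, which is not a member. The complex thus formed an island of H3K27me3 peaks between regions with H3K4me3 peaks in both genotypes.

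**Figure D2:**
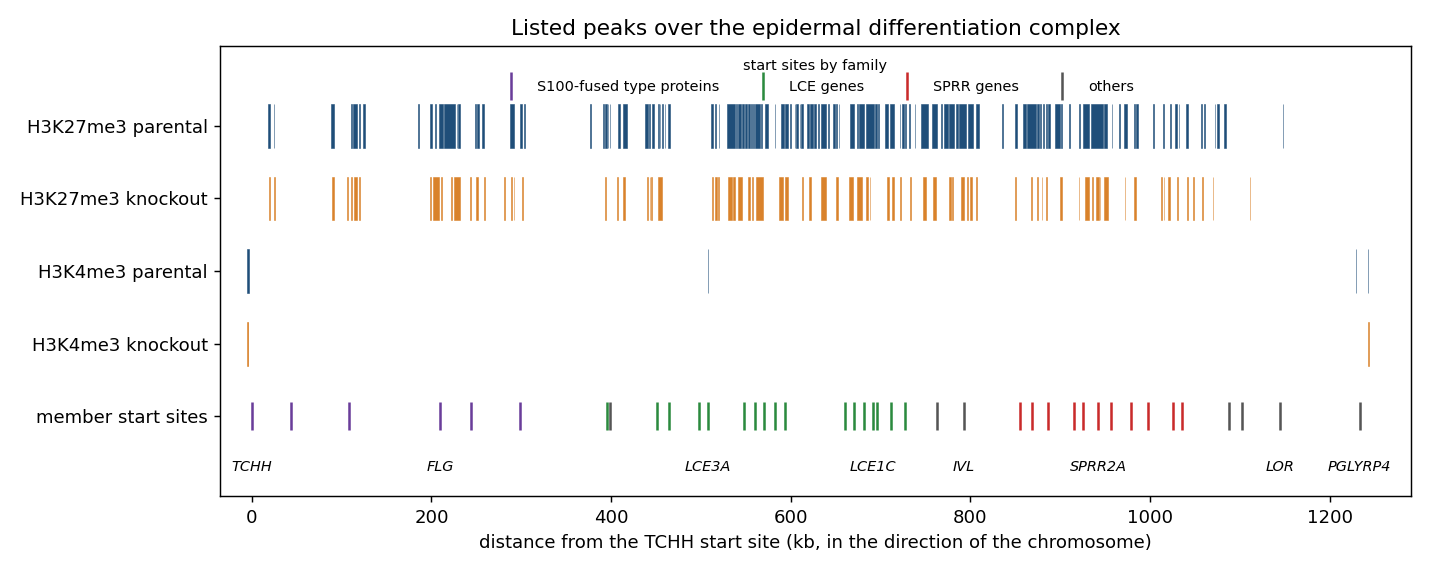
Peaks of the 4 lists along the locus, drawn to scale as bars over the distance from the TCHH start site in kb, with the 41 member start sites as ticks coloured by family. H3K27me3 peaks (121 parental, 80 knockout) fill the middle of the locus, and the 4 parental and 3 knockout H3K4me3 peaks lie at its ends except for a single parental peak at LCE3A. The last H3K4me3 peak of each list lies near the start of S100A9, which is not a member.

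Coverage differed along the complex. The locus was split midway between neighbouring families into 4 stretches, and coverage is given per length of the stretch. That of 6 S100-fused type genes, from TCHH to CRNN, was 14.5% covered in parental and 10.3% in knockout cells, with 20 and 19 peaks and a log2 length ratio of -0.49. The stretch of 18 genes from LCE5A to LCE6A was 32.3% and 18.5% covered, with 59 and 30 peaks and a ratio of -0.81. The stretch of 13 genes from SMCP to SPRR2G, which holds IVL and the SPRR genes, was 37.0% and 15.97% covered, with 38 and 29 peaks and a ratio of -1.21. The last stretch, from LELP1 to PGLYRP4, was 2.11% and 0.463% covered, with 4 and 2 peaks. The log2 ratio was thus closer to 0 over the filaggrin end than over the SPRR genes. Of 26 consecutive bins of 50 kb (the last one shorter), 22 held any H3K27me3, and parental cells had the greater length in all 22.

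**Figure D3:**
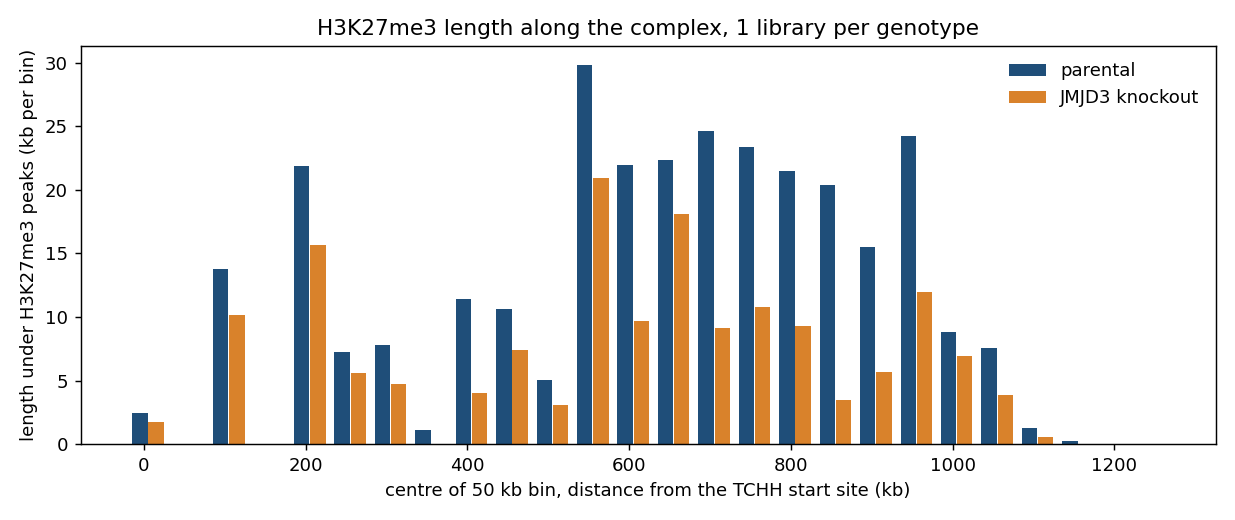
Length under H3K27me3 peaks in kb for consecutive bins of 50 kb along the locus, by distance from the TCHH start site, with 1 bar per genotype and no error bars because each genotype has 1 library. The parental bar is the higher one in all 22 bins that hold any peak.

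Knockout peaks lay mostly where parental peaks lay. Of the 80 knockout peaks in the locus, 68 (85.0%, Wilson 95% interval 75.6 to 91.2) overlapped a parental peak by at least 1 bp, against 28.2% (26.6 to 29.8) in the rest of the knockout list. In the other direction 68 of the 121 parental peaks were overlapped (56.2%, 47.3 to 64.7), against 26.2% (24.8 to 27.7) elsewhere. These intervals cover counting error only, and neighbouring peaks are not independent. Coverage was also denser in the locus, as given above, and its part in the higher shares was not tested. By length, 114 kb were shared, 70.2% of the knockout length and 37.7% of the parental length. In the rest of the lists 19.7% of the knockout and 20.1% of the parental length were shared. The 53 parental peaks without a knockout counterpart were narrower (median 1203 bp) than the 68 with one (median 2594.5 bp). The rest of the parental list had the same order, with medians of 807 and 1295 bp.

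The widest domains of each list were only partly shared with the other. The widest peak of the parental H3K27me3 list, 13028 bp from 153022348 to 153035375, spanned the start of SPRR2A, and 3 knockout peaks shared 30.1% of its length. The second in the locus, 12110 bp from 152302487 to 152314596, lay between FLG and FLG2, with 27.6% shared. The third and the fourth, 9559 bp over LCE1C and 9536 bp over SPRR1A, had 35.4% and 11.7% shared. The widest knockout peaks within the locus were 7623 bp from 152649504 to 152657126 between LCE2C and LCE2B, 6500 bp from 152312902 to 152319401 between FLG and FLG2, 6257 bp from 152290206 to 152296462 at FLG and 6003 bp from 152761396 to 152767398 between LCE1E and LCE1D. Parental peaks shared 71.4%, 58.5%, 23.0% and 80.2% of their lengths. The third of them lay over a parental peak of 1439 bp, so domains that were wider in knockout cells also occurred. Peaks of at least 5 kb numbered 15 in the locus in parental and 5 in knockout cells, and 25 and 27 in the rest of the lists.

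Promoter H3K27me3 was listed for more members in parental than in knockout cells, and the counts depended on the window. A promoter was called marked when a peak centre lay at most 5 kb from the start site or when a peak spanned it. By this rule 33 of 41 members were marked in parental cells, where 5.11% of all gene symbols were, and 23 in knockout cells, where 4.97% were. All 23 were also marked in parental cells (2.37% of all symbols were marked in both). The other 10 were marked in parental cells only, against 2.74% of all symbols, and 0 in knockout cells only, against 2.6%. Within 1 kb the counts were 15 and 3 members, 1 of them in knockout cells only, and 13 and 1 members had a spanned start. The window applies to centres, so a peak with only an edge within 1 kb did not count unless it spanned the start. Within 10 kb they were 36 and 33, with 4 in the parental list alone and 1 in the knockout list alone. The 10 of the 5 kb window were CRCT1, LCE1B, LCE2A, LCE2B, LCE3A, LCE3D, LELP1, LOR, SPRR2B and SPRR2G. For 5 of them the centre of the nearest knockout peak lay just outside the window. It was at 5023 bp for LCE3A, 5211 for CRCT1, 5262 for SPRR2B, 5284 for LCE2B and 5332 for SPRR2G. The edges of these 5 peaks reached into the window, so the 5 calls rest on the rule of centres. The members just inside it in knockout cells were LCE6A at 4806 bp and SPRR4 at 4612 bp, and in parental cells LCE3A at 4629 bp. Unmarked in both genotypes were TCHH, RPTN, LCE3B, LCE1F, SPRR1B, SPRR2F, PRR9 and PGLYRP4. Members share peaks: 1 domain can mark several neighbouring starts, so the members are not independent counts.

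Marked members had wide regions, and these were narrower in knockout cells for most. The summed width of a member's promoter peaks had a median of 3854 bp over the 33 marked in parental cells and 2737 bp over the 23 marked in knockout cells, where all marked genes had 1059.5 and 1226 bp. Among the 23 members marked in both lists, 16 had less width in knockout cells (49.2% of the 429 genes marked in both lists did) and 7 had more. The median log2 ratio was -0.93, against 0.01 over the 429 genes. A difference of at least 2-fold was a decrease for 9 of the 23 (23.5% of the 429) and an increase for 1, SPRR2E (21.2% of the 429). The width is the extent of a called region and not the amount of the mark.

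**Figure D4:**
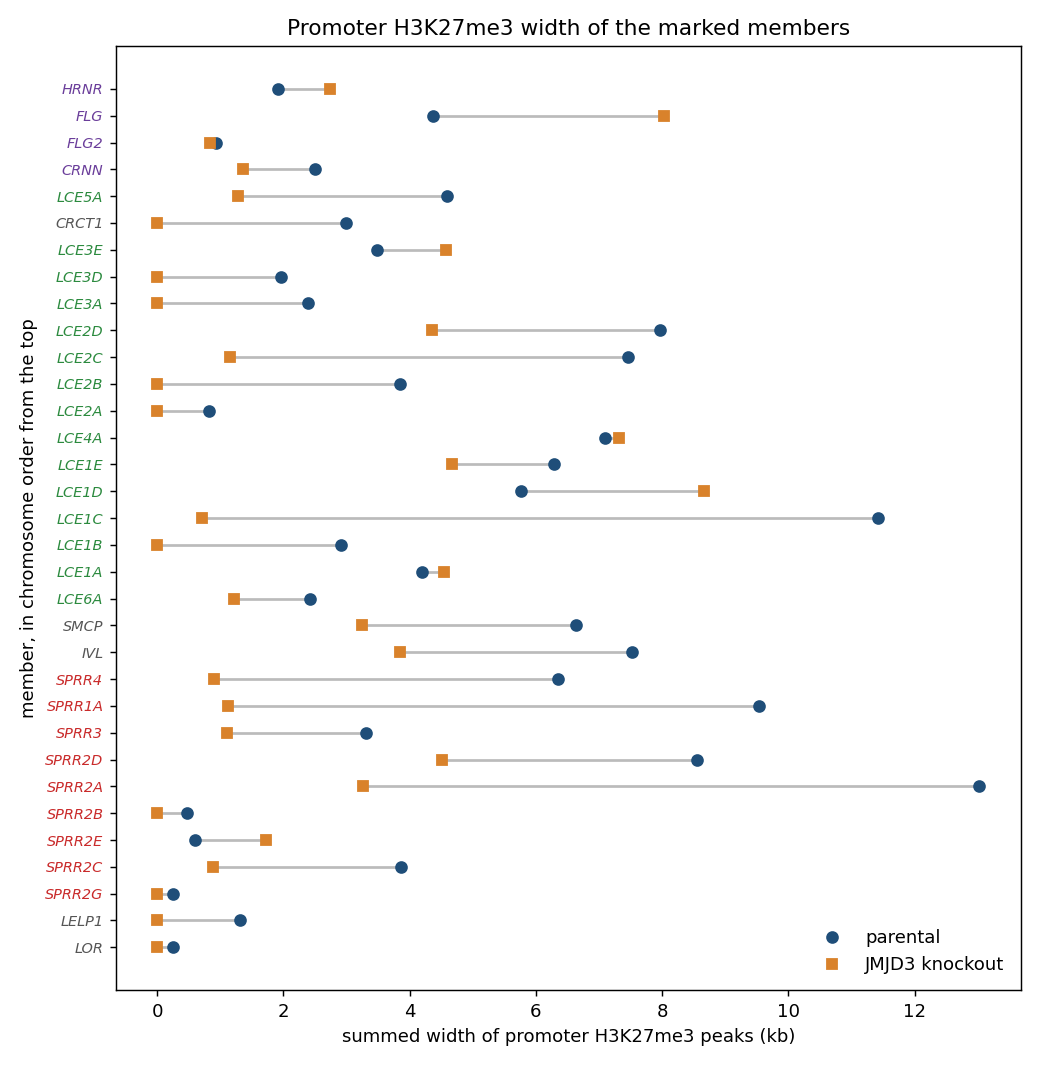
Summed width of promoter H3K27me3 peaks in kb for the 33 marked members in chromosome order from the top, with parental values as circles and knockout values as squares. The knockout square lies left of the parental circle for 26 members and right of it for 7, and lies at 0 for the 10 members marked in parental cells only.

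Among the families, the SPRR genes, whose proteins are small cross-bridges of the envelope, had the lowest median log2 width ratio. It was -1.996 over the 7 of 11 SPRR members with promoter H3K27me3 in knockout cells, which are among the 9 with it in parental cells. SPRR2A (NM_005988, start 153029989) lay under 1 parental peak of 13028 bp and had 2 knockout peaks of 3265 bp in all, a log2 ratio of -1.996. Its start was the only member start inside a knockout peak, which ran from 153027757 to 153030634. SPRR1A (start 152956564) had 9536 bp in parental cells and 1119 bp in knockout cells (-3.09), and the knockout peak ended 408 bp before the start. SPRR4 (start 152943129) had 2 parental peaks of 6354 bp in all and 1 knockout peak of 906 bp (-2.81). SPRR2D (start 153013595) had 2 peaks in each list, of 8559 and 4506 bp in all (-0.93). These 4 genes had the widest parental regions of the family. All 4 were narrower in knockout cells, a direction that a choice by parental width favours. SPRR3 had 3303 and 1102 bp and the pseudogene SPRR2C 3859 and 885 bp. SPRR2E went the other way, from 602 to 1724 bp. SPRR2B and SPRR2G were narrow in parental cells (465 and 258 bp) and unmarked in knockout cells.

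Promoter H3K27me3 at the LCE genes, which encode late reinforcing proteins, was listed for 15 of 17 in parental cells and for 10 in knockout cells. LCE1C (start 152779108) had the lowest ratio of any member marked in both lists. It had 2 parental peaks of 11423 bp in all and 1 knockout peak of 716 bp, a log2 ratio of -4.00. The parental peak of 9559 bp counted whole because it spanned the start. A knockout peak of 2668 bp inside that parental peak had its centre outside the window and counted for LCE1D instead. Knockout peaks shared 35.4% of the 9559 bp, so the ratio depends on this rule. LCE2C (start 152647791) had 3 parental peaks of 7457 bp in all and 1 knockout peak of 1149 bp (-2.70). The difference of -6308 bp was -1526 bp within 10 kb. Within 1 kb neither list had a peak centre and no peak spanned the start, though edges of parental peaks lay that near. The widest knockout peak of the locus begins between the start of LCE2C and that of LCE2B, and its centre lies outside the 5 kb window of LCE2C. LCE2D (start 152635887) had 3 of 7972 bp and 1 of 4362 bp (-0.87). All 3 were narrower in knockout cells in this window. LCE1D (start 152769227) had more width there, with 1 parental peak of 5771 bp from 152764165 to 152769935 and 2 knockout peaks of 8671 bp in all, and so did LCE3E (3476 and 4578 bp). For LCE1D the difference of 2900 bp turned to -5771 bp within 1 kb and to -7679 bp within 10 kb. LCE4A (start 152681523) had 2 peaks in each list with nearly the same width, 7089 and 7315 bp. Its difference of 226 bp turned to -3680 bp within 1 kb and to -107 bp within 10 kb. In the 1 kb setting the parental peak counted only because its edge at 152681522 just reached the start. The knockout peak from 152681587 did not count, as its centre lay at 1632 bp. LCE1A had 4195 and 4541 bp. LCE5A (4598 and 1281 bp), LCE1E (6285 and 4673 bp) and LCE6A (2418 and 1225 bp) were narrower in knockout cells. LCE1B, LCE2A, LCE2B, LCE3A and LCE3D, unmarked in knockout cells, had between 817 and 3854 bp in parental cells. The median ratio over the 10 LCE genes marked in both lists was -0.65. Some members are near copies: the promoter windows of LCE2D and LCE2C were 92.4% identical and those of SPRR2A and SPRR2F 87.1%. The sources used here do not give how reads that fit several copies were placed, and the values of the LCE2 and SPRR2 genes are uncertain to that extent.

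The genes of S100-fused type proteins had the median ratio nearest to 0. FLG, FLG2, HRNR and CRNN were marked in both genotypes, with a median of 0.19 on the log2 scale. FLG (NM_002016, start 152297680), which encodes filaggrin, had 1 parental peak of 4370 bp over its start, from 152296693 to 152301062. The knockout list had 2 peaks of 8035 bp in all, 1217 bp and 533 bp away on either side of the start. The difference of 3665 bp was 677 bp within 10 kb and turned to -4370 bp within 1 kb. In the 1 kb setting the parental peak counted because it spanned the start. The knockout peak 533 bp away did not count, as its centre lay at 1422 bp. HRNR, a filaggrin relative, had 1911 and 2737 bp, FLG2 933 and 842 bp, and CRNN, cornulin, 2507 and 1367 bp. TCHH, the hair follicle protein trichohyalin, and RPTN, repetin, had no promoter H3K27me3. The nearest peak centres lay at 19386 and 19862 bp from the TCHH start and at -18956 and -18620 bp from the RPTN start in parental and knockout cells, where a negative distance points to lower coordinates.

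The envelope precursors involucrin and loricrin differed from each other. IVL (NM_005547, start 152881039) lay under a parental peak of 7522 bp from 152875700 to 152883221 and had 2 knockout peaks of 3855 bp in all, which left its start free. Its ratio of -0.96 was close to the median of the members. LOR (start 153232179) had 1 narrow parental peak of 258 bp at 3621 bp from the start and no knockout peak within 20 kb. That peak was lost with minimum widths of 300 or 1000 bp and with lists of equal length, and LOR was then unmarked in both. SMCP (start 152850798), a sperm mitochondrial protein gene inside the complex, had 2 parental peaks of 6634 bp in all and 1 knockout peak of 3239 bp (-1.03). CRCT1 and LELP1 had 2995 and 1311 bp in parental cells and were unmarked in knockout cells.

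In knockout cells H3K27me3 was rare at the start sites themselves. In parental cells 13 of 41 member starts lay inside an H3K27me3 peak (31.7%, Wilson 95% interval 19.6 to 47.0), where 0.691% of all symbols had such a start. In knockout cells 1 did (2.44%, 0.432 to 12.6), where 0.63% of all symbols did. The 13 were FLG, CRNN, LCE3D, LCE2D, LCE2A, LCE4A, LCE1D, LCE1C, LCE1A, IVL, SPRR1A, SPRR2D and SPRR2A. LCE4A and LCE2D were spanned by a few bases only. The LCE4A peak began at 152681522 with the start at 152681523, and the LCE2D peak ended at 152635891 with the start at 152635887. Outside the complex the counts were 112 and 113 genes, 24 of them in both. Of the 12 starts not spanned in knockout cells, 9 had a knockout peak elsewhere under the same parental domain, and the nearest knockout peak edge lay 64 to 8638 bp away with a median of 1783.5 bp. At LCE4A the edge lay 64 bp from the start, at SPRR1A 408, at FLG 533, at IVL 616 and at LCE1A 926 bp.

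The profile around the starts showed the same difference by position. For the 36 members whose strand is known, 33.3% were covered on average within 500 bp of the start in parental cells, 33.5% between 10 and 1 kb upstream and 32.2% between 1 and 10 kb downstream. In knockout cells the values were 5.56%, 19.7% and 19.01%. The highest knockout values were 36.1% at -2500 bp, where the parental value was 30.6%, and 33.3% at -3000, 5500 and 6000 bp. Knockout coverage was also low far from the start, with 5.56% at -10000 bp, 8.33% at -8000 bp and 8.33% at 9500 bp. At these positions the parental values were 22.2%, 22.2% and 36.1%. The parental profile had no low point at the start. Among 11826 genes outside the complex the knockout values were 0.493% within 500 bp, 0.575% upstream and 0.660% downstream, and the parental values 0.527%, 0.547% and 0.572%. The 36 members have overlapping surroundings and come from 1 library per genotype, so the profile is a description.

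**Figure D5:**
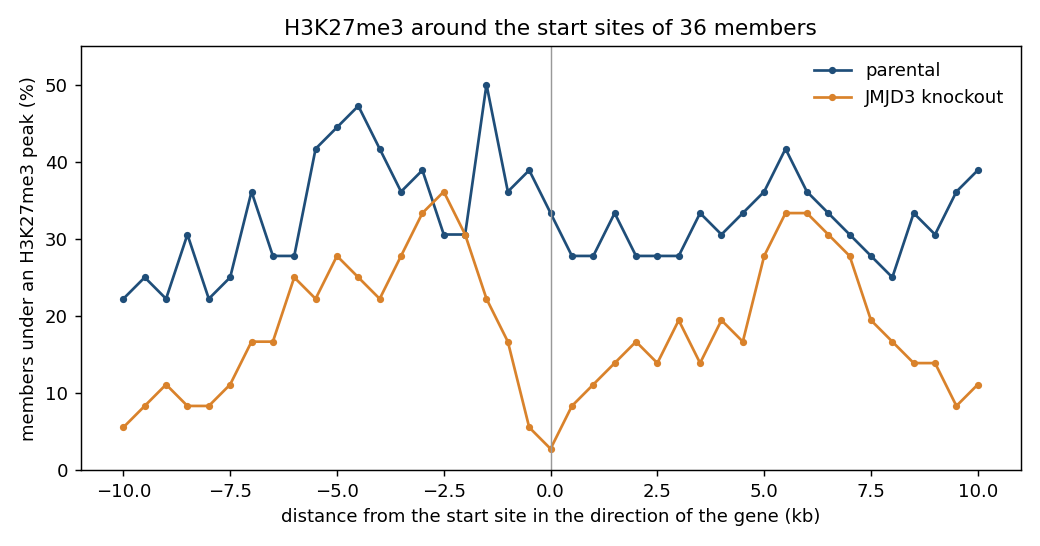
Percentage of 36 members under an H3K27me3 peak (y axis) at steps of 500 bp from the start site in the direction of the gene (x axis, kb), for parental and knockout cells. At the start itself 33.3% of members are covered in parental cells and 2.78% in knockout cells.

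H3K4me3 was almost absent from the members. Promoter H3K4me3 was listed for 3 of 41 members in parental cells, where 71.3% of all symbols had it, and for 1 in knockout cells, where 62.9% did. Both lists had it for 1 member (61.9% of all symbols), the parental list alone for 2 (9.45%) and the knockout list alone for 0 (0.984%). No member start lay inside an H3K4me3 peak in either list. TCHH (start 152087931) was marked in both genotypes, by a parental peak of 1935 bp from 152082449 to 152084383 and by 2 knockout peaks of 704 and 176 bp, 880 bp in all. The log2 width ratio was -1.14, a decrease of at least 2-fold like that of 50.6% of the 11190 genes marked in both lists, whose median was -1.01. The centres of these peaks lay at -4515, -4705 and -3834 bp, on the transcribed side of the start and not at it. LCE3A had a parental peak of 215 bp whose centre lay 201 bp from the start, and PGLYRP4, a peptidoglycan recognition protein gene, had a parental peak of 151 bp at -3651 bp. Neither of these narrow peaks recurred in knockout cells. Promoter H3K4me3 was narrower in knockout cells for 95.9% of the 11190 genes, and its part in these 2 losses was not tested. The only member with both marks was LCE3A in parental cells, with an H3K27me3 peak of 2384 bp at 4629 bp, against 1.15% of all symbols with both marks. In knockout cells 0 members had both, against 0.84% of symbols.

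Some stretches of the complex had no H3K27me3 peak in either genotype. The longest that lay wholly within reach of listed start sites ran for 46.0 kb from 152553020 to 152599016 and holds the starts of LCE3B and LCE3A, with the parental H3K4me3 peak of LCE3A inside it. A stretch of 26.7 kb holds the starts of LELP1 and PRR9, and one of 16.9 kb that of SPRR2F. A stretch of 36.3 kb around LOR lay 94.2% within reach. Longer empty stretches at RPTN and next to CRNN lay only partly within reach, so peaks there could have gone unlisted.

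Genes of the same band and of the same process that are not members are set against the 5.11% and 4.97% of all symbols with promoter H3K27me3 and the 71.3% and 62.9% with promoter H3K4me3. The S100A genes that frame the complex, calcium-binding proteins of which several are active in myeloid cells, and KPRP, a keratinocyte gene inside it, had promoter H3K27me3 at 2 of 18 genes in parental cells (KPRP and S100A12) and at 1 in knockout cells (S100A12). They had promoter H3K4me3 at 8 of 18 in each genotype. Of 21 envelope and barrier genes outside the complex, such as the transglutaminases and desmosomal cadherins, KLK7 alone had promoter H3K27me3, in parental cells, and 5 and 6 had promoter H3K4me3. Of 12 regulators of epidermal differentiation 0 had promoter H3K27me3, and 7 and 6 had promoter H3K4me3, among them KLF4, GRHL3 and PRDM1. These counts of promoter H3K27me3 are 0 to 2 genes per list, near what the shares over all symbols give. Of the 18, 21 and 12 genes, 16, 16 and 10 had any line in the lists. The difference between these lists and the members was not tested.

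Gene families expressed in other specialised cells are set beside the complex, against the same 5.11% and 4.97% of all symbols. Keratin and keratin-associated protein genes (79 symbols) had promoter H3K27me3 at 10 genes in parental and 22 in knockout cells, with 5 in both and a median log2 width ratio of -0.24. Olfactory receptor genes (177 symbols) were marked at 48 and 49, with 22 in both and a median log2 width ratio of 0.38. The corresponding counts for the members were 33, 23 and 23. With 1 library per genotype, the differences between clusters have no test.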

How the data were processed

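HL-60 cells were profiled by ChIP-seq, with 1 library for each of 2 genotypes and 2 marks; 2 input libraries were not analysed here. Per the submitters' processing notes, BWA 0.7.10, SAMtools and MACS2 2.1.1 were used with build hg19; the sources used here do not give settings or controls. Per the file headers, each deposited line pairs a peak with a RefSeq transcript and gives bounds, a distance and a score. The deposited score follows from the distance (error at most 5e-13) and was not used. Peaks were listed by the authors per library. Depth is unknown.

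Start sites were computed as peak centre minus distance. Coordinates are counted from 1, on the reading that listed starts count from 0; otherwise starts shift by 1 bp. Peaks counted once each were intersected with bedtools 2.31.1 (minimum 1 bp), and functions were tested on simulated lists. Members matched RefSeq by symbol (40) or older name (1). Promoter windows were compared by alignment (Biopython 1.88). The members, lists and tests were chosen with earlier results of these data known; named in full are the 12 members with the widest promoter H3K27me3, those with promoter H3K4me3, and FLG, LOR and IVL. The search for promoter sequences, the profile around starts and the bins were added after the values were seen. Alternatives were promoter windows of 1 and 10 kb, spanned starts, nearest genes, minimum widths of 300 and 1000 bp, lists of equal length, joined peaks and 50% overlap. The lymphoid marker list is not reported here.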

Additional observations from a re-analysis of the deposited data

How the results depend on the processing

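No paired analysis was possible because each genotype and mark has 1 library, and for the same reason no library could be left out. The lower H3K27me3 length of the locus in knockout cells kept its direction under all 5 alternatives, with log2 ratios from -1.06 to -0.87. Joining peaks at most 3 kb apart turned the order of the peak counts, to 58 parental and 62 knockout peaks. With at least 50% of the peak covered, 27.3% of parental and 67.5% of knockout peaks were overlapped (15.2% and 15.2% elsewhere). With joined peaks the shares were 74.1% and 91.9% (28.9% and 30.6% elsewhere).

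The promoter counts depend on the window. Within 1 kb, by a peak centre or a spanned start, 15 members had promoter H3K27me3 in parental and 3 in knockout cells. Of these, 1 was marked in knockout cells only, and the median log2 width ratio was -2.63. Knockout peaks with an edge but not the centre within 1 kb, as at FLG and LCE4A, did not count. Counting only peaks that span the start gave 13 and 1 members, with a value of -2.18 from the 1 member (SPRR2A) in both. Within 10 kb the parental list alone marked 4 members and the knockout list alone 1. With peaks of at least 1000 bp the knockout list alone marked 1. FLG, LCE1D and LCE4A had more width in knockout cells in the 5 kb window and less within 1 kb and for spanned starts (-4370, -5771 and -3680 bp in either case); within 10 kb LCE1D and LCE4A also had less (-7679 and -107 bp).

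H3K4me3 rests on few narrow peaks. Peaks of at least 300 bp left 2 parental peaks and 1 knockout peak in the locus, 1 member marked in parental cells, 0 in parental cells only and 0 with both marks. Within 1 kb 1 member was marked in parental cells, 1 in parental cells only, 0 in knockout cells and 0 with both marks. Spanned starts gave 0 for each of these 4 counts. Lists of equal length gave 1 member in parental cells only, and within 10 kb 2 members were marked in knockout cells. These were TCHH and PGLYRP4, the latter by the peak centred 785 bp from the start of S100A9. The causes were not tested.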

Other observations

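Over the genome, 12 windows of 1 Mb had a mean H3K27me3 length of at least 20 kb over both lists. The windows starting at 152 and 153 Mb of chromosome 1, which hold the complex, ranked 1 and 3 by that length. Their log2 ratios of knockout over parental length were -0.90 and -0.81, the lowest of the 12. The next lowest was close, at -0.79 for the window starting at 56 Mb of chromosome 18. The 12 windows had a median ratio of -0.36 (quartiles -0.68 and -0.15, highest 0.26), and 9 were below 0. The windows were chosen with the values in view.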
